A study of Homo sapiens with 6 samples.

Results

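The cytosolic ribosomal protein genes are described here over 6 expression arrays of a prostate carcinoma line. Members are the entries whose symbol is RPLP0, RPLP1, RPLP2 or RPSA, or is RPL or RPS with a number and at most 1 of the letters A, X and L. The rule picked 84 of 34594 entries: 48 of the large subunit, 3 of the stalk (RPLP0, RPLP1, RPLP2) and 33 of the small subunit. A further 14 entries of the same form end in P and a number, name pseudogenes, and are described apart. Of the 84 members, RefSeq now calls 3 pseudogenes (RPL13L, RPL14L and RPS26L), and they were kept because the rule includes them.

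The arrays hold 2 subclones of PC-3M, a metastatic derivative of the prostate line PC-3. Subclone 1E8 has a control array without ATP, an array after 6 h of 100 µM ATP and an array after 12 h. Subclone 2B4 has the same 3 conditions, and all cells grew in medium with fetal bovine serum. No time is stated for either control array, and each control serves as the baseline of both ATP times in its subclone. Each subclone is a single clone, so a difference between them is a difference between these lines, and each of the 6 groups has 1 array.

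Ribosomal proteins coat the ribosomal RNA of the large and the small ribosomal subunit, and most are made in nearly equal numbers because each ribosome holds a single copy. The acidic proteins RPLP1 and RPLP2 are the exception: they bind RPLP0 in several copies and form the stalk that recruits translation factors. Many of these mRNAs begin with a C followed by an unbroken run of pyrimidines, the terminal oligopyrimidine motif, through which mTOR and LARP1 control their translation. The genes are scattered over the chromosomes and have left many processed pseudogenes, so a probe for a member may also read a near-identical copy, and values of single members are uncertain to that extent.

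The starts of the genes on which the results turn are printed below as 30 bases, 15 before the annotated RefSeq start and 15 from it, on the transcript's strand (GRCh38.p14). Capitals mark the longest run of at least 5 C or T after the start. The first 7 genes are among the 8 named for the difference between the subclones, and the last 4 among the 8 named for the difference in ATP effect between them.
RPL36A: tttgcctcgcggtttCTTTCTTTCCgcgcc
RPL27: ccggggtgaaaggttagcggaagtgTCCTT
RPL39: ttcttccgccagcttCCCTCCTCTTCCTTT
RPL4: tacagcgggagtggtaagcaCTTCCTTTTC
RPS7: gtttccgccctcctcctcgcgctgTTTCCg
RPLP1: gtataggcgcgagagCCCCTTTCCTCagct
RPL13A: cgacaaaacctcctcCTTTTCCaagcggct
RPLP2: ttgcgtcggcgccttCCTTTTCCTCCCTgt
RPL41: cggaacttcgcctttCTCTCggccttagcg
RPL28: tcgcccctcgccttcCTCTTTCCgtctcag
RPS27L: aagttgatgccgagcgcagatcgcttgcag
These windows lie at chrX:101390996-101391025 (RPL36A, plus strand), chr17:42998404-42998433 (RPL27, plus), chrX:119791616-119791645 (RPL39, minus) and chr15:66504841-66504870 (RPL4, minus). RPS7 lies at chr2:3575245-3575274 (plus), RPLP1 at chr15:69452803-69452832 (plus), RPL13A at chr19:49487593-49487622 (plus) and RPLP2 at chr11:809952-809981 (plus). RPL41 lies at chr12:56116618-56116647 (plus), RPL28 at chr19:55385917-55385946 (plus) and RPS27L at chr15:63157463-63157492 (minus).

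RPL36A, RPLP1, RPL39, RPL13A, RPLP2, RPL41 and RPL28 open with C and at least 4 more pyrimidines at the annotated start. In RPL4 and RPS7 the run lies a few bases further in, and RPS27L, a paralog of RPS27, has no run in the window. RefSeq gave a window of 300 bases for 64 of the 84 members. At any annotated start, 46 of these 64 genes (71.9%) began with C and 4 more pyrimidines, against 942 of 15779 other protein-coding genes (5.97%). CCGGAAG, searched on both strands of the 300 bases, was in 23 of 64 members (35.9%) and in 16.5% of the other genes. AAGATGG was in 8 members (12.5%) and in 7.88% of the other genes, and TATAAA in 6 members (9.38%) and in 12.4% of the others. CCGGAAG, the core of many ETS factor sites, can overlap AAGATGG, the core of YY1 sites, by 3 letters. A match describes the letters only.

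The authors' deposited values are linear intensities, whose means over all entries differed by less than 1 between arrays. An entry counted as measured when it was above its array's background peak by 3 peak widths, a limit of 29.6 on the 1E8 control array and of 43.8 to 52.6 on the other 5. The narrower background of the 1E8 control array left 11239 entries above its limit, against 9403 to 9871 on the other 5 arrays. Among genes that check the label, KRT8, KRT18, KRT19, EPCAM and VIM passed the limit on all 6 arrays, and the prostate luminal genes KLK3 and KLK2 on none. Of 8 markers of leukocytes, endothelium and blood, PECAM1 was above the limit on all 6 arrays at 54.3 to 102 and the other 7 on none. The summed intensity of those 8 markers ran from 75.2 to 137.

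The family was bright as a whole. Of the 84 members, 80 passed the limit on each of the 6 arrays, and these 80 are the members tested below among 11130 tested entries. All 84 members made up 5.50%, 5.82% and 6.06% of all summed intensity on the control, 6 h and 12 h arrays of 1E8, and 5.63%, 5.57% and 5.52% on those of 2B4. Between 16 and 18 of the 100 brightest entries on each array were members. The median of the 84 members stood at 4385, 4456 and 4642 on the 1E8 arrays in the order control, 6 h, 12 h, and at 4248, 4225 and 4287 on the 2B4 arrays. All values by array below follow that order of conditions. Intensities of different entries depend on their probes, so brightness describes signal and not the abundance of a transcript.

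Among the brightest members were RPLP2 and RPS25, with mean intensities of 12357 and 10682 over the 6 arrays. The 4 dimmest above the limit were RPL28 (131), RPL36A (142), RPL23A (222) and RPL13L (227). The remaining 4 members were above the limit on no array. RPL37 read 20.3 to 40.7 and RPL10 from -14.6 to 0.861, although both encode core proteins of the large subunit. RPL3L, a paralog of striated muscle, and RPL10L, a paralog of testis, read at most 17.0 and 14.6. The other paralogs were measured: RPL39L at 639 to 971 and RPS27L at 454 to 682.

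The spread of single members was taken relative to the family. Relative to the median of the 80 members on the same array, the SD of a member over the 6 arrays had a median of 0.13 on the log2 scale. It was smallest for RPL38, at 0.04, followed by RPS14, RPL35A and RPL29. RPL38 read 8823, 9109 and 9979.7 in 1E8 and 8735, 8703 and 9052 in 2B4, so its arrays lay near each other. The SD was greatest for RPL36A, at 0.49, followed by RPL28, RPL13A and RPL4. RPL36A and RPL28 are also among the dimmest members. No such SD was taken for other entries, so whether members varied less than entries of like brightness was not tested.

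How the subclones differed was asked with 1E8 minus 2B4 over the 3 matched conditions, in limma on log2(intensity + 16). Adding 16 shrinks the differences of dim entries. That of RPL36A was -0.92 with an offset of 1, -0.83 with 16 and -0.67 with 50. In 1E8, RPL4, RPS7 and RPLP1 were higher and RPL36A and RPL27 lower at an adjusted p under 0.05. These 5 of 80 members are 6.25%, against 17.2% of all tested entries. The members' median difference was 0.03 (50 of 80 positive), against 0.01 over all tested entries. The SD of the differences was 0.20 over the members and 0.43 over all entries. With 1 array a group, p-values measure the spread of the 6 arrays about an additive model, which may be technical. Each array read a bulk culture, so fewer cells with a transcript and less RNA per cell cannot be told apart.

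**Figure D1:**
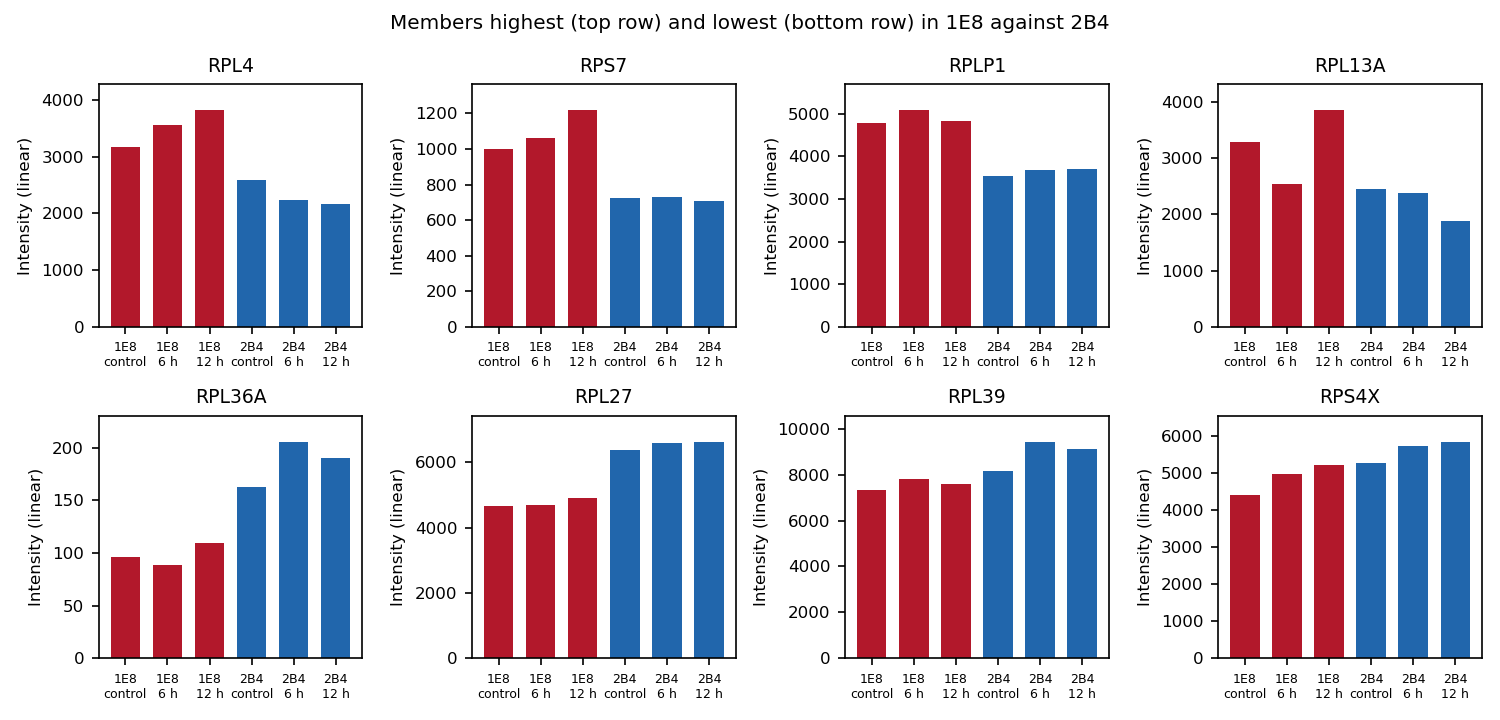
Linear intensity (y axis from 0) of the 4 members highest and the 4 lowest in 1E8 relative to 2B4, with 1 bar per array (red 1E8, blue 2B4). In all 8 panels every 1E8 bar lies on the same side of every 2B4 bar, with RPL36A at 88.2 to 109 in 1E8 and 162 to 205 in 2B4.

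RPL36A, a large-subunit protein encoded on X, showed the greatest difference. It read 96.5, 88.2 and 109 in 1E8, against 162, 205 and 190.5 in 2B4. Every 1E8 array was below every 2B4 array, and the log2 difference was -0.83 ± 0.13 (SE, limma adjusted p = 0.0081). RPL27, a large-subunit protein mutated in some patients with Diamond-Blackfan anaemia, an inherited failure of red cell production, read 4667, 4706 and 4919 in 1E8 and 6367, 6588 and 6622 in 2B4. The subclones did not overlap, and the difference was -0.45 ± 0.10 (limma adjusted p = 0.029).

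RPL4, which lines part of the exit tunnel of the large subunit, read 3161, 3564 and 3814 in 1E8 and 2589, 2239.7 and 2164 in 2B4. Its lowest 1E8 array was above its highest 2B4 array, with a difference of 0.59 ± 0.13 (SE, limma adjusted p = 0.0288). RPS7, a small-subunit protein also mutated in Diamond-Blackfan anaemia, read 998, 1059.8 and 1216 in 1E8 and 722, 728 and 708 in 2B4. The 2B4 arrays lay within a narrow band below all 1E8 arrays, and the difference was 0.59 ± 0.11 (limma adjusted p = 0.0175).

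All 3 stalk proteins had positive differences, and RPLP1 alone passed. RPLP1 read 4789.7, 5073 and 4815 in 1E8 and 3531, 3681 and 3695 in 2B4, a difference of 0.43 ± 0.10 (SE, limma adjusted p = 0.0351). RPLP0, the protein that anchors the stalk, read 3709.9, 4165 and 4433 in 1E8 and 3206, 3267 and 3292 in 2B4. Its groups did not overlap either, and its difference was 0.33 ± 0.11 (SE, limma adjusted p = 0.0842). It passed with an offset of 50 and with a mean-variance trend. RPLP2 read 10012.5, 13765 and 14367 in 1E8 and 13527, 11589 and 10879.6 in 2B4, and its groups overlapped.

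Leaving out 1 array, which leaves 1 residual degree of freedom, ended several calls. RPL36A kept its call when any single array was left out. RPL27, RPL4 and RPLP1 lost it without any 1 of the 6 h or 12 h arrays, and RPS7 without either 12 h array. The differences themselves moved less, and ran from -0.47 to -0.44 for RPL27, from 0.48 to 0.74 for RPL4, from 0.41 to 0.45 for RPLP1 and from 0.50 to 0.65 for RPS7. The count of members called was 3 without either 6 h array, 1 without either 12 h array and 6 without either control array. All entries called in those fits were 10.5%, 8.29% and 23.1% of those tested, so the count over all entries moved in the same direction. With an offset of 1 in place of 16 it was 2 (RPL36A and RPS7), beside 12.5% of all entries. With no filter on dim entries it was 0, as over all entries.

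Members with groups that did not overlap were no more frequent than entries in general. All 3 arrays of 1E8 were above all 3 of 2B4 for 13 members (16.25%, against 18.9% of all tested entries). Among them were RPL4, RPL12, RPL13A and RPL36 of the large subunit, RPLP0 and RPLP1 of the stalk, and RPS7, RPS19, RPS21, RPS27 and RPS27A of the small subunit. RPS27A, made as a fusion to ubiquitin, read 7131, 7938 and 7887 in 1E8 and 6963, 6674 and 6797 in 2B4. All 3 arrays of 1E8 were below all of 2B4 for 7 members (8.75%, against 17.3% of all tested entries): RPL11, RPL27, RPL35, RPL36A, RPL39, RPS4X and RPS20.

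RPL13A, which also takes part in the GAIT complex that silences inflammatory mRNAs, read 3285, 2543 and 3844 in 1E8 and 2449, 2369 and 1871 in 2B4. Its difference of 0.52 ± 0.18 did not pass (SE, limma adjusted p = 0.0971), and it passed without either 6 h array, at 0.73. Without either 12 h array the difference was 0.26. RPL39, a small protein of the exit tunnel, read 7322, 7806 and 7569.8 in 1E8 and 8166, 9422 and 9096 in 2B4, a difference of -0.23 ± 0.10 (limma adjusted p = 0.178). RPS4X, the X-linked form of the small-subunit protein S4, read 4402, 4981 and 5214 in 1E8 and 5291, 5726 and 5847 in 2B4, with -0.21 ± 0.10 (limma adjusted p = 0.213). The 3 tested members on X thus all had negative differences, of which that of RPL36A passed.

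Position on the chromosomes was therefore set beside the members' differences, a comparison chosen after the values were seen. Of the non-member entries on X, 272 of 307 had negative differences, with a median of -0.57, and 185 were called lower in 1E8 and 10 higher. Chromosome 15 ran the other way: its 262 non-member entries had a median of 0.36, with 27 negative, and 102 were called higher and 1 lower. The 4 members on chromosome 15 had a median of 0.35. RPL4 and RPLP1 were positive and RPS27L was negative, at -0.11. The 4 members on chromosome 2, RPS7 among them, had a median of 0.16, beside 0.19 for the 571 other entries there.

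**Figure D2:**
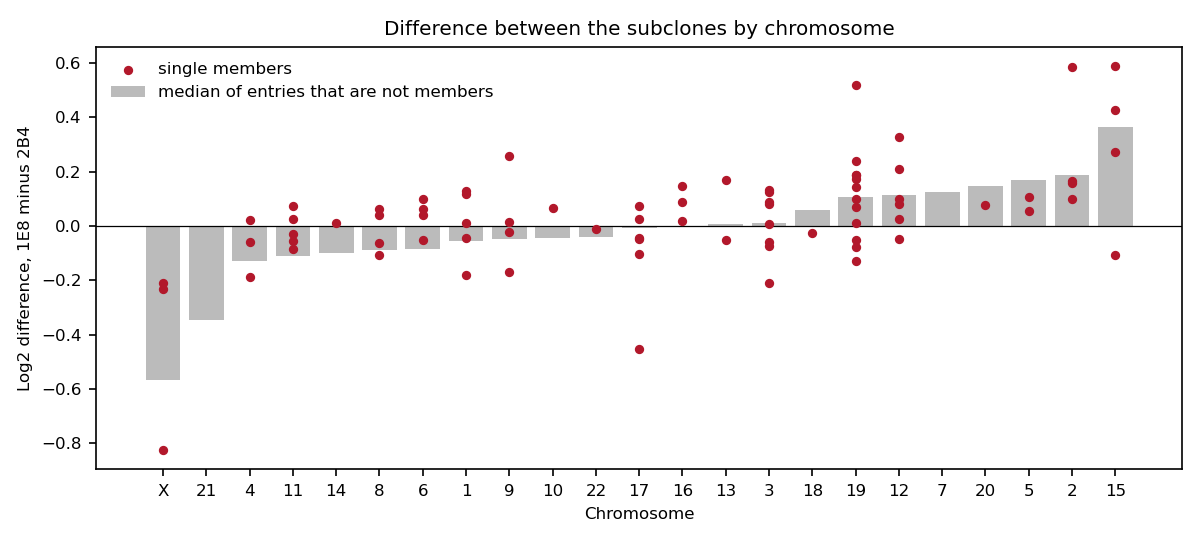
Log2 difference of 1E8 minus 2B4 by chromosome, in order of the median of the entries that are not members (grey bars), and each tested member as a red point. X and chromosome 15 lie at the ends with members, at medians of -0.57 and 0.36 for the other entries, and the members there lie mostly on the same side as their bar.

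The nearest genes gave a finer view. For each of the 80 members the median difference of up to 20 tested non-member entries was taken, 10 on each side in RefSeq order. It correlated with the member's own difference at Pearson 0.64 and Spearman 0.50 over 80 members, and at Pearson 0.51 without RPL36A and RPL27. These are descriptions, since all points come from the same 6 arrays and nearby members share neighbours. The Pearson value was 0.40 between the control arrays alone, 0.54 between the 6 h arrays and 0.46 between the 12 h arrays. Members and neighbours had the same sign in 51 of 80 cases.

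RPL36A, at -0.83, had neighbours with a median of -0.64, of which 18 of 20 were negative. RPL39 had neighbours at -0.34, all 20 negative, and RPL27 had neighbours at -0.34, with 14 of 20 negative. The neighbours of RPL4 stood at 0.29 (19 of 20 positive), those of RPLP1 at 0.23 (18 of 20) and those of RPS7 at 0.28 (14 of 17). All 5 called members thus had neighbours whose median had the same sign as their own difference. RPL13A, at 0.52 and not called, had 19 neighbours with a median of the same sign but near 0, at 0.05 (11 positive, 8 negative). RPL18 stood at 0.19 among neighbours at 0.46, and RPL12 at 0.26 among neighbours at -0.09. What part position plays in the members' differences was not tested.

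**Figure D3:**
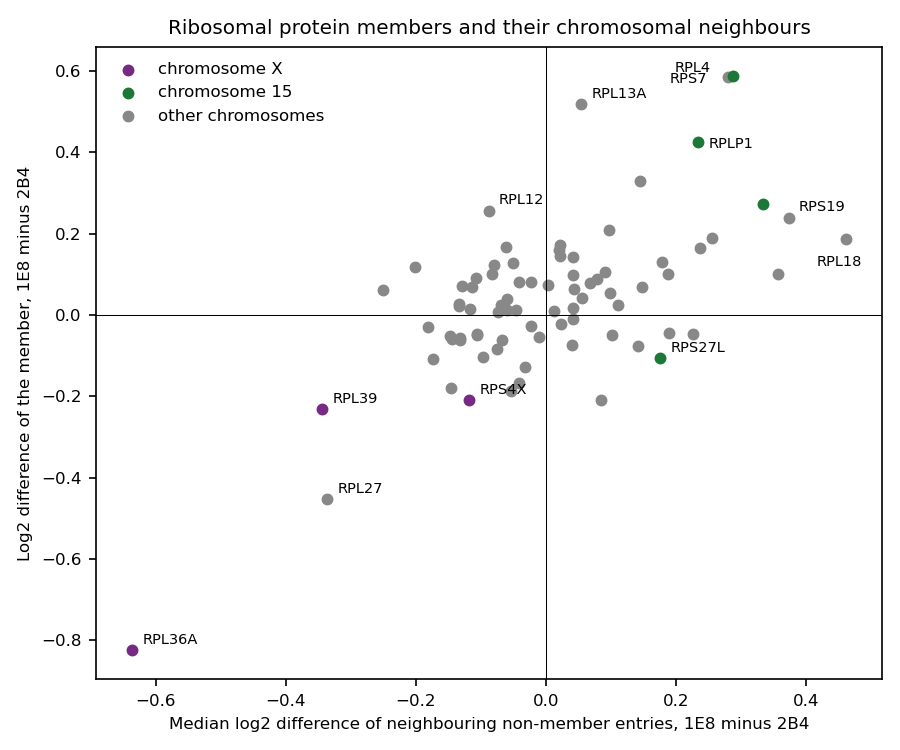
Each point is 1 of the 80 tested members, with the median log2 difference (1E8 minus 2B4) of up to 20 neighbouring entries on the x axis and the member's own difference on the y axis. Points run from RPL36A at the lower left to RPL4, RPS7 and RPLP1 at the upper right, with Pearson 0.64, and RPL13A and RPL18 lie off that line.

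The question of the ATP arrays was whether ribosomal protein mRNAs changed with ATP in the mean of both subclones. None of the 80 members was called, and neither was any of the 11130 entries (0%), in limma at an adjusted p under 0.05. The members' smallest adjusted p was 0.516. At an unadjusted p under 0.05 no member passed, against 10.2% of all tested entries. The members' median was 0.03 (50 of 80 positive), against -0.03 over all entries. Scaling every array to a common median made it 0.09, and quantile normalization -0.0014, so its sign and size depended on the scaling.

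RPL34, a large-subunit protein, had the highest ATP difference. It read 378, 363 and 429 in 1E8 and 344, 458 and 560.1 in 2B4, so it was above control at both ATP times in 2B4 and only at 12 h in 1E8. The difference of 0.30 ± 0.14 did not pass (SE, limma adjusted p = 0.516), and ran from 0.06 without the 2B4 control array to 0.54 without the 1E8 control array. RPL22, which also binds small viral RNAs and is not needed for translation in general, had the lowest. It read 1568, 1080.1 and 1248 in 1E8 and 1349, 1270.0 and 1204 in 2B4, below control on all 4 ATP arrays, at -0.28 ± 0.13 (limma adjusted p = 0.516), and its range with 1 array left out was -0.43 (2B4 control) to -0.12 (1E8 control). Next to RPL34 stood RPL41 (0.22), RPS13 (0.19) and RPL30 (0.18), and next to RPL22 stood RPL8 (-0.22), RPL13 (-0.19) and RPL7 (-0.19). None of these passed.

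At 6 h against control no member was called, as for all tested entries (0%). No member passed at an unadjusted p under 0.05, against 9.80% of all entries. The members' median was 0.03 (48 of 80 positive), against -0.04 over all entries. RPL28 was highest, at 0.43 ± 0.23, and RPL22 lowest, at -0.31 ± 0.15 (SE, limma adjusted p = 0.598 and 0.566). With 1 array left out RPL28 ran from 0.01 (2B4 control) to 0.85 (1E8 control) and RPL22 from -0.49 (2B4 6 h) to -0.13 (1E8 6 h). At 12 h against control the count was again 0 of 80 members and of all entries (0%), and 1 member, RPL34, passed unadjusted, against 9.16% of all entries. RPL34 stood at 0.43 ± 0.16 (limma adjusted p = 0.512), with 0.19 without the 2B4 control array and 0.67 without the 1E8 control array, and the members' median was 0.03 (53 of 80 positive). Both times use the same control arrays, so their values are not independent.

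Between 12 h and 6 h of ATP no member and no entry was called (0%). RPL28 alone passed unadjusted, against 6.95% of all tested entries. It read 144, 139 and 92.9 in 1E8 and 98.2, 199 and 113 in 2B4, so both subclones were lower at 12 h than at 6 h, by -0.62 ± 0.23 (SE, limma adjusted p = 0.66), and by -0.33 without the 2B4 6 h array. RPL39L, a paralog of RPL39, was highest, at 0.26 ± 0.16 (limma adjusted p = 0.842) and from 0.08 to 0.44 with 1 array left out. It read 780.1, 639 and 832 in 1E8 and 758, 878 and 971 in 2B4.

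Within each subclone, with 1 array a side and so no test, few members differed from control by 0.32 or more on the log2 scale. In 1E8 at 6 h, 5 members were higher by that much (8.98% of all tested entries were) and 8 lower (20.6%). In 1E8 at 12 h, 6 members were higher (8.24%) and 6 lower (21.4%). In 2B4 at 6 h, 4 members were higher (9.49%) and 1, RPL8, lower (10.8%). In 2B4 at 12 h, 4 members were higher (11.8%) and 3 lower (12.1%). In each of these 8 counts the members' share was below that of all entries. The 2 sets differ in brightness, however. All 80 members were above the limit on all 6 arrays, against 8508 of the 11130 tested entries. Only 13 members had a mean intensity under 1000, against 9599 of the other entries. Shares among entries of like brightness were not taken, so the lower shares are not read as a trait of the family.

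Of the members past that size, 11 passed it at both times of 1 subclone. RPLP2, RPL41 and RPS24 were higher in 1E8 at both times, and RPL7, RPL23, RPL22 and RPL26 were lower at both. In 2B4, RPL34 and RPS13 were higher at both times and RPL8 was lower at both. RPL13A, RPL23, RPL28 and RPS27L passed it in both subclones, and of these RPL23 alone did so at the same time (6 h). RPL13A passed as lower in 1E8 at 6 h (-0.37) and in 2B4 at 12 h (-0.39). At the other times it was 0.23 in 1E8 (12 h) and -0.05 in 2B4 (6 h), so the subclones did not match. RPL23, RPL28 and RPS27L passed in opposite directions, lower in 1E8 and higher in 2B4. RPL41, which encodes a peptide of very few residues, read 5239, 7037 and 8439.7 in 1E8 and 7055, 6759 and 6204 in 2B4. RPL7 read 1718, 1023 and 1182 in 1E8 and 1184, 1445 and 1385 in 2B4. For both genes the control array of 1E8 stood apart from its ATP arrays, and those of 2B4 lay on the other side of their control.

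The difference in ATP effect (1E8 minus 2B4) was tested in a model with 1 residual degree of freedom. No member was called, and 1 of 11130 entries was (0.00898%). At an unadjusted p under 0.05, 11 members passed, 6 positive and 5 negative (13.75%, against 18.8% of all entries). The members' median was -0.0028, against -0.07 over all entries. The SD of the differences was 0.35 over the members and 0.39 over all entries.

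Among the highest were RPLP2 at 0.76 ± 0.18, RPL8 at 0.74 ± 0.20 and RPL41 at 0.68 ± 0.22 (SE, limma adjusted p = 0.172 to 0.214). The lowest 4 were RPL7 at -0.89 ± 0.20, RPL28 at -0.84 ± 0.19, RPS27L at -0.74 ± 0.18 and RPL23 at -0.69 ± 0.20 (limma adjusted p = 0.162 to 0.195). RPL8, which lies near the site of peptide bond formation, read 3754, 3891 and 4469.8 in 1E8 and 5134, 3501 and 3332 in 2B4. The ATP arrays thus lay above the control in 1E8 and below it in 2B4 for RPL8, as they did for RPLP2 and RPL41. Over a mean intensity of 8000, where RPLP2 lies, the median difference in ATP effect was 0.27 for the 15 members (13 positive). It was 0.35 for the 71 other entries there (68 positive), so the direction is not particular to RPLP2. Between 4000 and 8000, where RPL8 and RPL41 lie, the medians were -0.0011 for members and 0.04 for other entries.

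RPS27L, the paralog of RPS27, read 646, 454 and 521 in 1E8 and 491, 574 and 682 in 2B4. RPL23, a large-subunit protein, read 2064, 1471 and 1554 in 1E8 and 1551, 1980.1 and 1706 in 2B4. For these 2 genes the ATP arrays lay below the control in 1E8 and above it in 2B4. The count of calls depended on the settings: it was 6 (7.5%) with an offset of 50, 5 (6.25%) with entries above the limit on all 6 arrays only, and 14 (17.5%) with a mean-variance trend. Over all entries those settings called 364 of 11130 (3.27%), 284 of 8508 (3.34%) and 739 of 11130 (6.64%), so the members' share was above that of all entries there, and it was below it at an unadjusted p in the main settings. RPL7, RPL28, RPS27L and RPLP2 were among those called under all 3 of those settings. The members' count was 0 after quantile normalization, scaling to 1 median, centring on the members and cyclic loess. It was also 0 with an offset of 1, with no filter and with robust eBayes. Over all entries these alternatives called at most 21 (0.189%, when centred).

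**Figure D4:**
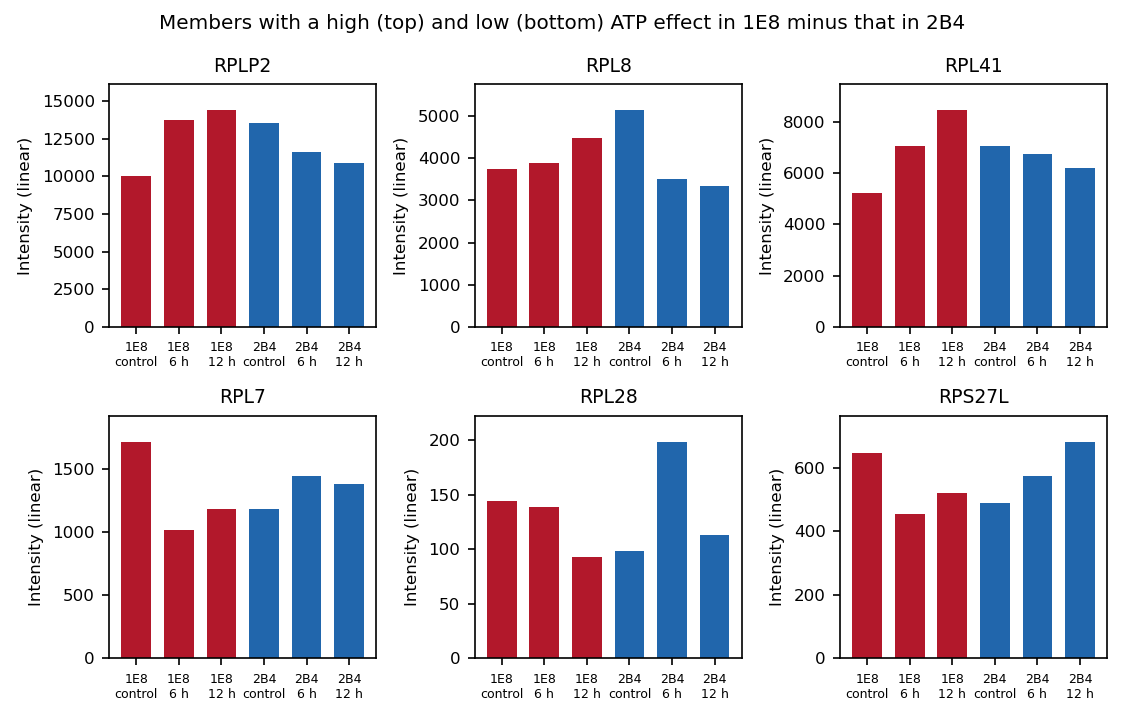
Linear intensity of the members with a high (top row) or low (bottom row) difference in ATP effect between the subclones, with 1 bar per array (red 1E8, blue 2B4) on axes from 0. In the top row the red ATP bars stand above the 1E8 control and the blue ATP bars below the 2B4 control, and in the bottom row the bars run the other way.

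Members' differences with ATP varied with their brightness. In 1E8, 14 of the 15 members with a mean intensity over 8000 were positive at 6 h (median 0.17) and 15 of 15 at 12 h (median 0.22). In 2B4, 5 of these 15 were positive at 6 h (median -0.02) and 3 at 12 h (median -0.07). The 21 members between 1000 and 4000 had medians of -0.17 and -0.12 in 1E8 and of 0.05 and 0.04 in 2B4. Over the 80 members, the correlation of mean log2 intensity with the ATP difference was Pearson 0.50 at 6 h and 0.47 at 12 h in 1E8, and -0.50 and -0.29 in 2B4. After quantile normalization it was 0.19 and 0.06 in 1E8 and -0.39 and -0.16 in 2B4, and after cyclic loess, chosen after the data were seen, 0.24 and 0.14 in 1E8 and -0.44 and -0.24 in 2B4. These correlations share the control array of each subclone and are given as descriptions.

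The same held for bright entries that are not members. Of 71 such entries over 8000, 67 were positive in 1E8 at 6 h (median 0.25) and 70 at 12 h (median 0.29), against 19 and 10 in 2B4 (medians -0.06 and -0.11). The highest intensity on an array was 11054 on the 1E8 control array and 12945 to 15447 on the other 5. After quantile normalization the median of the 15 brightest members was -0.02 at both times in 1E8, and 0.02 and 0.0044 in 2B4. With arrays scaled to 1 median it was 0.27 and 0.34 in 1E8, where that scaling moved the median of all entries from -0.07 and -0.08 to 0.02 and 0.03. Cyclic loess gave 0.05 and 0.06 in 1E8, and centring on the members 0.08 and 0.10. The bright members' median in 1E8 was thus positive under each of these scalings other than quantile normalization, and its size varied. Which scaling fits these arrays was not tested.

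**Figure D5:**
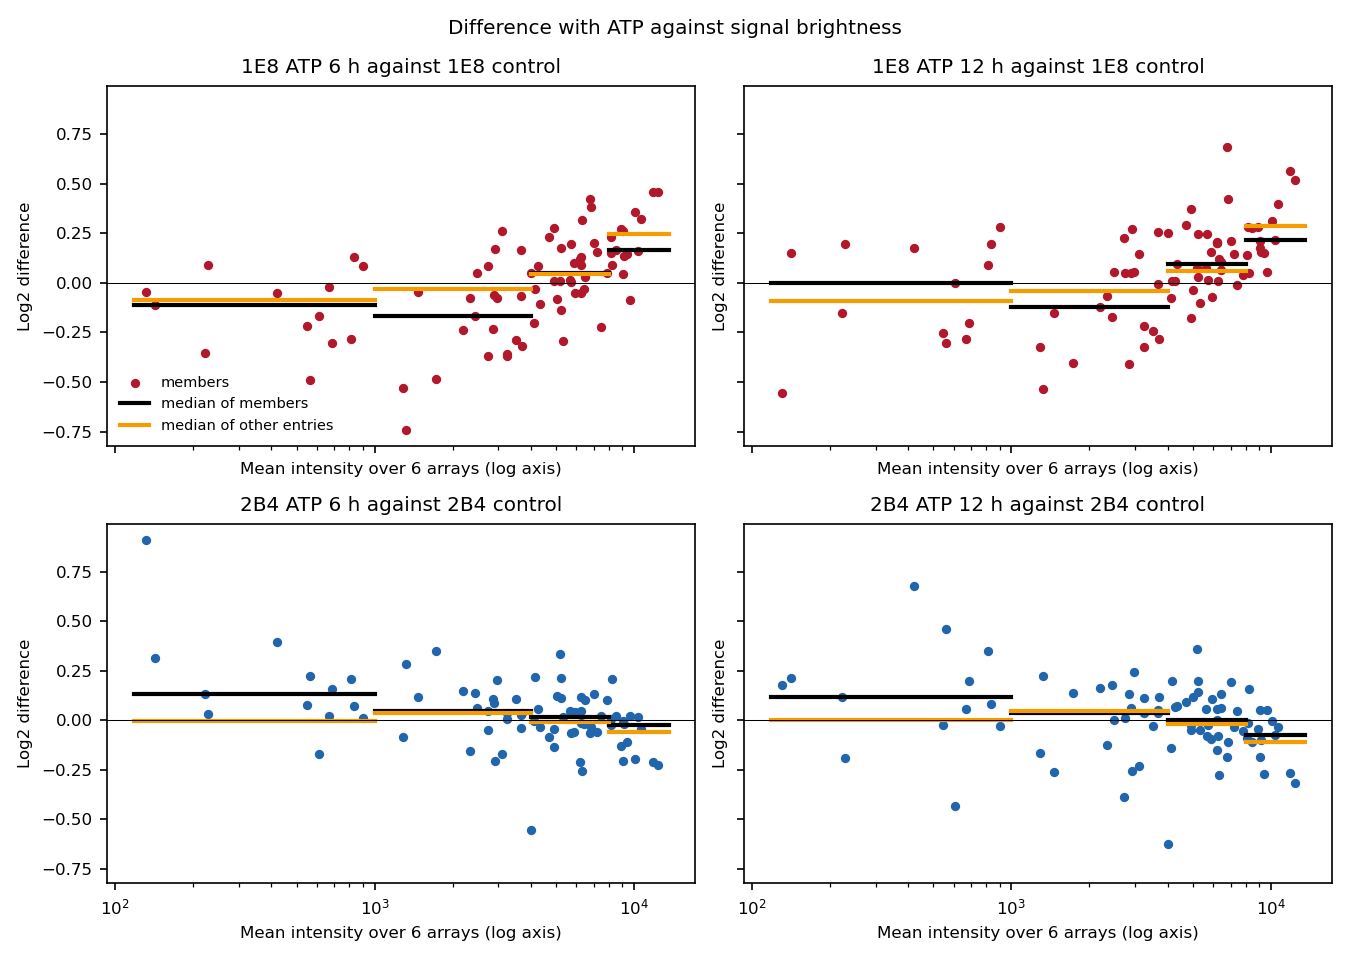
Log2 ATP difference (ATP minus control of the same subclone) against mean intensity on a log axis, with 1 point per member (red 1E8, blue 2B4) and lines for the medians of members (black) and other entries (orange) in 4 brightness bands. The brightest members lie above 0 in 1E8 (medians 0.17 and 0.22 over 8000) and at or below 0 in 2B4 (-0.02 and -0.07), as do the brightest other entries.

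By subunit, the 44 tested large-subunit members had a median of 0.01 for 1E8 minus 2B4, the 33 small-subunit members 0.07 and the 3 stalk members 0.33. With ATP the medians were 0.0076, 0.04 and 0.11, and no member was called. The 45 tested members that begin with C and a pyrimidine run had medians of 0.06 (subclone), 0.05 (ATP) and 0.02 (difference in ATP effect). The 17 with another start had medians of -0.01, -0.01 and -0.0091, and the difference between these sets was not tested.

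Of the 14 pseudogene entries, 9 were tested and 8 were above the limit on all 6 arrays. RPS26P11 was the brightest, at 1995 to 2487, followed by RPS6P1 at 1144 to 1302 and RPL12P6 at 669.7 to 962. RPL23AP53, above the limit on 4 arrays, was called lower in 1E8, at -0.48 ± 0.12 (SE, limma adjusted p = 0.043). The other 8 did not pass.

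Other genes of the translation machinery were read from lists in the same fits, where 17.2% of all entries were called between the subclones. For ribosomal proteins outside the rule, 0 of 6 tested were called between the subclones, FAU among those tested. Of 48 genes whose symbol begins with EIF, mostly translation initiation factors, 4 were called (8.33%). In 1E8, EIF3J was higher (0.64), and EIF1AX (-0.91), EIF2S3 (-0.82) and EIF4EBP2 (-0.57) were lower. EIF4EBP2 is not itself an initiation factor and is counted again among the control genes below. Of 13 elongation and release genes, 1 was called (7.69%): the release factor GSPT2 was lower, at -1.32 ± 0.11 (SE, limma adjusted p = 0.00109). Of 24 other genes with the terminal oligopyrimidine motif, EIF2S3 was the 1 call (4.17%).

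Of 51 ribosome assembly genes, 6 were called (11.8%): 3 were higher in 1E8 (UTP15 at 0.73, WDR43 at 0.62 and DDX21 at 0.41) and 3 lower (GNL3L at -0.73, RRP1 at -0.56 and EBNA1BP2 at -0.39). Of 13 genes of RNA polymerase I, which transcribes ribosomal RNA, 3 (23.1%) were higher (POLR1B at 0.69, TAF1B at 0.61 and TWISTNB at 0.53) and none lower. Of 20 genes that control ribosomal protein synthesis, 1 was higher in 1E8 and 2 lower (15% in all, against 17.2% of all entries). DDIT4, an inhibitor of mTOR signalling, was higher at 1.495 ± 0.118 (SE, limma adjusted p = 0.000751), and EIF4EBP2 was among those lower. Of 75 mitochondrial ribosomal proteins, 5 were higher and 5 lower (13.3% in all). For the genes of these lists, position on the chromosomes was not set beside the differences.

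No gene of these lists was called with ATP. At 12 h against 6 h the 51 ribosome assembly genes had a median of -0.11 (8 positive). The 80 ribosomal protein members had 0.03 there, and all tested entries 0.0022. At 6 h against control the assembly genes had a median of 0.0015, against -0.04 over all entries. The 13 RNA polymerase I genes had a median of -0.18 with ATP (3 positive), against 0.03 for the members and -0.03 over all entries. These medians were not tested against each other.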

How the data were processed

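Total RNA from 6 cultures, 1 per group, was extracted with Trizol, cleaned on RNeasy columns and labelled as biotinylated cRNA with the Illumina TotalPrep kit, per the labels' protocols. The deposited values table holds linear intensity per gene symbol, some below 0, with equal means over the arrays; the software behind it is not given in the sources used here. A second table of non-normalized signals has 6 columns whose names match no sample label, and it was not used.

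Negative intensities were replaced by 0, 16 was added, and the log2 values were fitted with limma 3.58.1 (R 4.3.3) on 11130 entries, namely those above the limit (background peak plus 3 widths) on at least 1 array. Sequence-cluster entries (3270) and 100 duplicates were left out. The additive model of subclone and condition has 2 residual degrees of freedom, and the model with a subclone by ATP term has 1. P-values were adjusted by Benjamini-Hochberg over all tested entries, at a threshold of 0.05. The limma fit was tested on simulated data with known changes for the difference between the subclones. Arrays have no read depth, and their number limits the precision.

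The members and gene lists were chosen with earlier results of these data known. Named members are the 4 highest and 4 lowest per comparison among those above the limit on all 6 arrays, every member called or below the limit, the 4 brightest and dimmest, the paralogs, the stalk proteins, RPS27A, and the 4 of greatest and least spread. Members called in pairs of arrays, members compared with their neighbours, and genes called in other lists were named after their values were seen. RefSeq symbols or synonyms matched all 84 members. Sequences are from RefSeq (GRCh38.p14). Alternatives were quantile normalization, scaling to 1 median, centring on the members, offsets of 1 and 50, other filters, a mean-variance trend, robust eBayes, leaving out each array and, added after the data were seen, cyclic loess. Some genes that the naming rule picks are not reported here.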

Additional observations from a re-analysis of the deposited data

How the results depend on the processing

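The count of 5 members called between the subclones stayed at 5 under quantile normalization, scaling to 1 median, the filter on all 6 arrays, robust eBayes and cyclic loess (chosen after the data were seen). When centred on the members it was 4 (5%, against 14.4% of all entries), as RPLP1 lost its call. With an offset of 50 it was 6 (7.5%, against 20.3%), with RPLP0 added. With the mean-variance trend it was 7 (8.75%, against 20.4%), with RPLP0 and RPL13A added. The count was 2 with an offset of 1 and 0 with no filter, where 30958 entries were tested and none was called. It ran from 1 to 6 when 1 array was left out; without an array its partner is fitted exactly, so both arrays of a condition give the same count. For the difference in ATP effect, where 0 members were called, the count was 6 with an offset of 50 (7.5%, against 3.27% of all entries), 5 with entries above the limit on all 6 arrays (6.25%, against 3.34%) and 14 with the mean-variance trend (17.5%, against 6.64%). It was 0 under each of the other alternatives that kept all 6 arrays. The members' median ATP difference of 0.03 became 0.0928 with arrays scaled to 1 median and -0.0221 when centred on the members. At 6 h it became 0.0845 with arrays scaled to 1 median. At 12 h it became 0.0973 with arrays scaled to 1 median and -0.0529 when centred, and it ran from 0.0199 to 0.0886 with 1 array left out. Between 12 h and 6 h it became -0.0265 when centred. The median difference in ATP effect, -0.0028, became -0.0423 after quantile normalization, 0.107 with arrays scaled to 1 median, -0.103 when centred and -0.067 after cyclic loess, and ran from -0.022 to 0.0447 with 1 ATP array left out, where no residual degree of freedom remains and no test was made. Without a control array that difference could not be estimated. Centring removes the members' own median from each array, so the members' medians after it cannot show a shift of the whole family. The reversals of named members all came from leaving out 1 array, and the ranges over the 6 omissions follow. For ATP against control, RPL8 ran from -0.586 to 0.151 (positive without the 2B4 control array), RPL7 from -0.637 to 0.254 and RPL41 from -0.124 to 0.556 (both reversed without the 1E8 control array). At 6 h, RPL8 ran from -0.618 to 0.119 and RPL34 from -0.0664 to 0.41 (reversed without the 2B4 control array), RPS24 from -0.063 to 0.41 and RPL41 from -0.158 to 0.521 (without the 1E8 control array). RPL7 ran from -0.673 to 0.217 (positive without the 1E8 control array, and 0.0949 without the 1E8 6 h array) and RPL13A from -0.52 to 0.105 (without the 1E8 6 h array). At 12 h, RPL28 ran from -0.61 to 0.234 and RPL41 from -0.0889 to 0.59 (reversed without the 1E8 control array, and RPL41 at -0.0635 without the 1E8 12 h array). Between 12 h and 6 h, RPS23 ran from -0.27 to 0.0461 (without the 1E8 12 h array). The cause of these changes was not tested. No paired analysis was possible because every group has only replicate 1, so its number gives no block, and condition is already a term in the comparison of the subclones. The number of arrays and the background limit bound what can be read of dim members.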
